A study of Mus musculus with 6 samples.

Results

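The 8 genes described here encode transcription factors that give excitatory projection neurons of the neocortex their layer and identity. They are Fezf2, Bcl11b, Tbr1, Cux2, Rorb, Neurod2, Neurod6 and Emx1, and they were taken by symbol from a table of 23057 genes. All 8 were found, and all 8 passed the filter for testing, which asked for 0.5 FPKM or more on average. FPKM counts fragments relative to the length of the transcript and to the mapped reads of the library, so levels can be compared between genes. The list was proposed with earlier results of these data known.

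The libraries come from brains of C57BL/6 mice, 3 mock-irradiated and 3 given a total of 10 Gy of X-rays to the head through a collimator with a field 10.08 mm across. Brains were taken on day 30 after perfusion with saline, and total RNA was sequenced. The labels call the tissue whole brain and give no age or sex, and they do not say which part of the brain lay in the field. Libraries carry the name of their group and their number.

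Projection neurons are the glutamatergic cells that carry the output of the cortex to other cortical areas and to the thalamus, brainstem and spinal cord. They are born in the dorsal wall of the forebrain, where Emx1 marks the lineage, and settle in layers with different targets. Deep-layer neurons need Fezf2 and Bcl11b for projections to the spinal cord and Tbr1 for those to the thalamus, while Cux2 marks upper layers and Rorb layer 4. Neurod2 and Neurod6 are related basic helix-loop-helix factors of differentiating and adult excitatory neurons. None of the 8 is limited to neocortex: Bcl11b is also made by striatal neurons, Tbr1 by output neurons of the olfactory bulb, Neurod2 by cerebellar granule cells, Rorb in thalamus, and Emx1 and Neurod6 in hippocampus.

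Neurod2 and Neurod6 are shown by the 250 bases before their start sites, because their products are related and yet only Neurod6 was called between the groups, a difference between the genes that was not itself tested. Capitals mark matches to CANNTG, the E-box that helix-loop-helix factors bind. The sequences are those of RefSeq for build GRCm38.p6, read 5′ to 3′ on the minus strand, at chr11:98329646-98329895 for Neurod2 and chr6:55681264-55681513 for Neurod6.
Neurod2: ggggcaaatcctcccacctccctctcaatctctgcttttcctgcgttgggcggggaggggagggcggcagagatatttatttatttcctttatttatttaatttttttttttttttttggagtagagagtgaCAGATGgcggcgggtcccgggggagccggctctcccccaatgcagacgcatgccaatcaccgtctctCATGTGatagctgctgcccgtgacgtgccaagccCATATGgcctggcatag
Neurod6: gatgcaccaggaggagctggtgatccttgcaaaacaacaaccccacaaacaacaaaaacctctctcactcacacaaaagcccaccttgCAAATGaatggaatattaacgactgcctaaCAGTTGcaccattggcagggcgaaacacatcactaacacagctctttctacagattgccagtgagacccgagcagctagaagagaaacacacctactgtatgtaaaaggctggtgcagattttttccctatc
The Neurod2 window held 3 E-boxes, and the Neurod6 window held 2. CANNTG reads the same on both strands, and 66.2% of 32851 such windows of mouse genes held it at least once. The form CAGATG, which stands in the Neurod2 window and not in the Neurod6 window, was in 14.4% of the windows when both strands were searched. The Neurod2 window had 52.8% G or C with 11 CG dinucleotides, and the Neurod6 window had 46.0% with 3, beside medians of 52.4% and 6 over all windows. These matches describe letters and not bound sites.

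Markers of brain regions differed between the libraries, within and between the groups, and are given here and again beside the factors that the region concerned also makes. Though all are labelled whole brain, 6 of 7 cerebellar genes were lower in irradiated libraries, and their summed level was 683.1 to 969.6 FPKM among mock and 5.3 to 32.6 FPKM among irradiated libraries. Gabra6, a GABA receptor subunit of cerebellar granule cells, was listed at 0 in irradiated 2. Mock 2 stood apart from the other mock libraries. Its sum over 6 genes of forebrain neurons that are not transcription factors was 104.2 FPKM, against 590.5 and 545.7 FPKM in mock 1 and mock 3 and 1439.6 to 2832.3 FPKM among irradiated libraries. Mock 2 is given apart below, as was set when the list of factors was proposed. None of these 6 genes was listed at 0 in any library. Genes of neurons of all regions differed less: Rbfox3, which encodes the nuclear antigen NeuN, was at 68.1 to 75.9 FPKM among mock and 67.1 to 105.05 FPKM among irradiated libraries.

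All 8 factors had a higher mean in irradiated than in mock libraries, with log2 changes that ran from 0.19 for Cux2 to 3.06 for Fezf2. Fezf2, Bcl11b and Neurod6 rose, by 3.06, 1.55 and 1.72 on the log2(FPKM + 0.5) scale. Emx1 and Tbr1 had changes of 2.49 and 2.32 that did not pass the test, and Rorb, Neurod2 and Cux2 had changes of 0.51, 0.44 and 0.19. In limma's test with Benjamini-Hochberg adjustment over 14585 genes, 3 of 8 were called higher and 0 lower at an adjusted p under 0.05, while 3.48% of all tested genes were called higher and 4.24% lower. In 7 of the 8 each irradiated library lay above each mock library, Cux2 being the exception, whereas 13.7% of all tested genes were separated upward and 17.7% downward. Without mock 2 the call on Fezf2 and that on Bcl11b were lost and 1 of 8 was called, Neurod6. Over all tested genes the number called higher then went from 508 to 205. The unadjusted limma p of Fezf2 and Bcl11b was 0.0025 and 0.0021 without mock 2, against 0.0029 and 0.0038 with all libraries, so only their adjusted p grew. The number of factors called was also 1 without mock 1, without irradiated 2 or without irradiated 3, where 187, 356 and 147 of all tested genes were called higher. In bulk RNA, fewer cells of a type and less RNA per cell cannot be told apart. Given the region markers above, the parts of the brain in the samples may also have differed, and this cannot be told apart from irradiation in any difference between the groups given here.

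**Figure D1:**
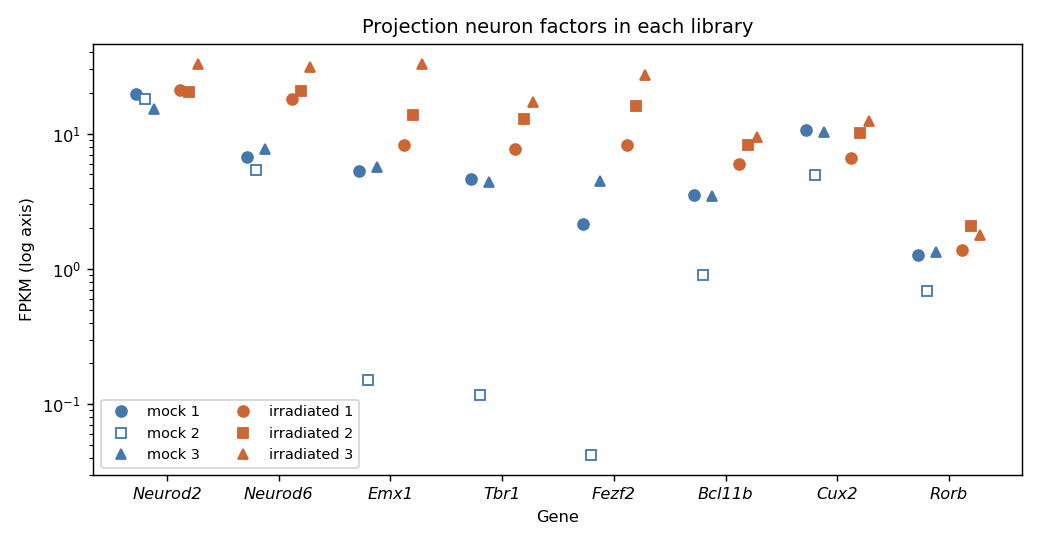
FPKM of each factor in each library, on a log axis, with mock libraries in blue, mock 2 as an open square and irradiated libraries in orange. Mock 2 lies far below the other mock libraries for Emx1, Tbr1 and Fezf2 (0.15, 0.12 and 0.042 FPKM) and close to them for Neurod2.

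Among the deep-layer factors, Fezf2, a zinc-finger repressor that specifies corticospinal neurons (chromosome 14, 12338992 to 12346803), had the widest range. It was at 2.16, 0.042 and 4.43 FPKM across mock 1, 2 and 3 and at 8.30, 16.1 and 27.4 FPKM across irradiated 1, 2 and 3. The irradiated libraries all lay above the mock libraries, the lowest of them 1.87 times the highest mock library, and mock 2 was nearly without Fezf2 RNA. Among the tested genes, 0.3% were at or below Fezf2 in mock 2, 31.0% in mock 3 and 74.6% in irradiated 3. The log2 change was 3.06 (SE 0.74, 95% interval 1.36 to 4.75, limma adjusted p = 0.044), and 2.14 (SE 0.48, limma adjusted p = 0.060) without mock 2. The mock mean was 2.21 ± 2.20 FPKM and the irradiated mean 17.3 ± 9.60 FPKM (SD, n = 3 each).

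Tbr1, a T-box factor of layer 6 neurons that project to the thalamus (chromosome 2, 61802863 to 61814114), had its lowest value in the same library as Fezf2 and its highest as well. It was at 4.63, 0.12 and 4.37 FPKM across mock 1, 2 and 3 and at 7.70, 12.9 and 17.1 FPKM across irradiated 1, 2 and 3. Mock 2 was 37.3 times lower than the lower of the other mock libraries, and the groups did not overlap. The log2 change was 2.32 (SE 0.74, 95% interval 0.64 to 4.01) and missed the threshold (limma adjusted p = 0.091), and it was 1.32 (adjusted p = 0.070) without mock 2. Tbr1 is also a factor of mitral and tufted cells, whose 4 marker genes summed to 128.0, 9.8 and 148.1 FPKM across mock 1 to 3 and to 154.1, 6.1 and 6.5 FPKM across irradiated 1 to 3, with none listed at 0. Within the irradiated group Tbr1 was higher in irradiated 2 and 3, where these sums were low, while among mock libraries both were lowest in mock 2. The part of olfactory bulb RNA in the Tbr1 values was not tested. Doc2g, a gene of those output neurons, was at 123.4 FPKM in irradiated 1 and at 3.96 and 4.26 FPKM in irradiated 2 and 3.

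Bcl11b, also called CTIP2, is a zinc-finger factor of layer 5 neurons that project out of the cortex (chromosome 12, 107910403 to 108004145). Its values were 3.51, 0.91 and 3.43 FPKM across mock 1, 2 and 3 and 5.93, 8.18 and 9.52 FPKM across irradiated 1, 2 and 3. The groups did not overlap, and mock 2 was again the lowest, although only 3.79 times below the lower of the others. Its log2 change was 1.55 (SE 0.39, 95% interval 0.65 to 2.45, limma adjusted p = 0.0496), just under the threshold, and 1.05 (adjusted p = 0.056) without mock 2. Striatal medium spiny neurons also make Bcl11b. Of 8 striatal genes 1 was called higher and 0 lower, and their summed level was 84.8 to 94.1 FPKM in mock, mock 2 included at 90.8 FPKM, and 81.4 to 118.5 FPKM among irradiated libraries. Six3 was the striatal gene listed at 0 in at least 1 library. The striatum is not the only region that differed less or more between the groups. Hippocampal genes had summed levels of 10.7 to 12.4 FPKM among mock and 61.0 to 89.0 FPKM among irradiated libraries. The part of striatal RNA, or of RNA from any other region, in the Bcl11b values was not tested.

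Neither upper-layer factor was called. Cux2, a homeodomain factor of layers 2 to 4 (chromosome 5, 121857962 to 122050415), was at 10.7, 4.94 and 10.3 FPKM across mock 1, 2 and 3 and at 6.67, 10.2 and 12.4 FPKM across irradiated 1, 2 and 3. The groups overlapped, and irradiated 1 was below mock 1 and mock 3. Its log2 change was 0.19 (SE 0.32, 95% interval -0.54 to 0.93, limma adjusted p = 0.73), and -0.15 (95% interval -0.75 to 0.46) without mock 2. The changes fitted over all libraries for Fezf2, Emx1, Tbr1, Neurod6 and Bcl11b lay above the upper end of that first interval. The intervals of Emx1, Tbr1 and Bcl11b still overlapped it, with lower ends of 0.57, 0.64 and 0.65. Those of Fezf2 and Neurod6 did not, with lower ends of 1.36 and 1.19. Differences between the genes were not tested.

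Rorb, a nuclear receptor of layer 4 neurons (chromosome 19, 18930609 to 19111196), had the lowest mean of the 8 in each group, although Fezf2, Tbr1 and Emx1 lay below it in mock 2. It was at 1.27, 0.68 and 1.33 FPKM across mock 1, 2 and 3 and at 1.38, 2.06 and 1.78 FPKM across irradiated 1, 2 and 3. The groups did not overlap, but the lowest irradiated library was only 1.04 times the highest mock library. The log2 change was 0.51 (SE 0.23, 95% interval -0.01 to 1.03) and missed the threshold (limma adjusted p = 0.21). Thalamic neurons also make Rorb. Of 8 thalamic genes 3 were called higher and 0 lower, with summed levels of 36.8, 40.0 and 37.2 FPKM across mock 1 to 3 and 46.3, 68.9 and 64.0 FPKM across irradiated 1 to 3, and none was listed at 0. Rorb and the thalamic sum were both highest in irradiated 2, but mock 2 had the lowest Rorb level and the highest thalamic sum of the mock libraries. Tcf7l2, a factor of thalamic neurons, was at 0.94, 5.00 and 0.79 FPKM across mock 1 to 3. The part of thalamic RNA was not tested.

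**Figure D2:**
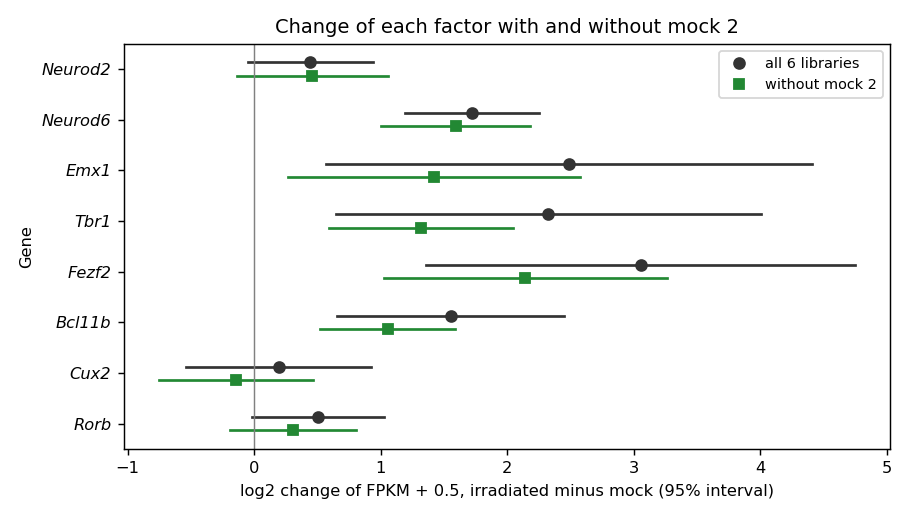
Log2 change of each factor, irradiated minus mock, with its 95% interval from limma, over all 6 libraries (black circles) and without mock 2 (green squares). Fezf2 moved from 3.06 to 2.14 and Emx1 from 2.49 to 1.42 when mock 2 was left out, while Neurod6 moved from 1.72 to 1.59.

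The pair of NeuroD factors whose promoters are printed above are described next. Neurod6, also called NEX, of excitatory neurons in neocortex and hippocampus (chromosome 6, 55677818 to 55681263), was at 6.68, 5.39 and 7.75 FPKM across mock 1, 2 and 3 and at 18.05, 20.8 and 31.2 FPKM across irradiated 1, 2 and 3. Even the lowest irradiated library had 2.33 times the highest mock library, and mock 2 was close to the other mock libraries. The log2 change was 1.72 (SE 0.23, 95% interval 1.19 to 2.25, limma adjusted p = 0.0039), and 1.59 (adjusted p = 0.019) without mock 2. Of the 8 factors it had the smallest p, ranking 192 among 14585 genes. Hippocampal genes moved beside it: 4 of 6 were called higher and 0 lower, with summed levels of 10.7 to 12.4 FPKM among mock and 61.0 to 89.0 FPKM among irradiated libraries and none listed at 0. The hippocampal gene C1ql2, which encodes a synaptic organizer of dentate granule cells, went from 3.33 ± 0.66 to 35.0 ± 4.99 FPKM (SD, n = 3 each). The hippocampal genes not called, Prox1 and Tdo2, had log2 changes of -0.13 and -0.09, and their groups overlapped. Thus C1ql2 does not stand for the whole list. The part of hippocampal RNA in the Neurod6 values was not tested.

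Neurod2 (chromosome 11, 98325415 to 98329645) had the highest mean level of the 8 in both groups. It was at 19.8, 18.1 and 15.3 FPKM across mock 1, 2 and 3 and at 20.9, 20.2 and 33.04 FPKM across irradiated 1, 2 and 3. The irradiated libraries lay above the mock libraries by as little as 1.02 times, and irradiated 3 alone was far above. Mock 2, the lowest mock library for the other 7 factors, was here between mock 1 and mock 3. The log2 change was 0.44 (SE 0.22, 95% interval -0.05 to 0.94) and missed the threshold (limma adjusted p = 0.24). Cerebellar granule cells also make Neurod2, and Gabra6, also of those cells, was at 73.8, 127.1 and 52.9 FPKM across mock 1 to 3 and at 1.39, 0 and 0.020 FPKM across irradiated 1 to 3, where 0 is the value listed. Mock 2 thus had the highest Gabra6 level while its Neurod2 level was like that of the other mock libraries. The part of RNA from cerebellum, hippocampus or any other region in the Neurod2 values was not tested.

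Within each library the log2(FPKM + 0.5) difference of Neurod6 minus Neurod2 was -1.50, -1.66 and -0.94 in mock 1, 2 and 3 and -0.21, 0.036 and -0.08 in irradiated 1, 2 and 3. The difference of Fezf2 minus Cux2 was -2.07, -3.33 and -1.14 across mock 1 to 3 and 0.30, 0.64 and 1.12 across irradiated 1 to 3. Cux2 was thus above Fezf2 in every mock library and below it in every irradiated library, though both were taken as neocortical layer markers. These pairs were chosen after their values were seen and were not tested. Rorb minus Cux2, the upper-layer pair, ranged over -2.66 to -2.20 in mock and -2.50 to -1.93 in irradiated libraries, so the groups overlapped.

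Emx1, a homeodomain factor of the dorsal forebrain lineage (chromosome 6, 85187931 to 85204463), was at 5.34, 0.15 and 5.70 FPKM across mock 1, 2 and 3 and at 8.19, 13.8 and 33.0 FPKM across irradiated 1, 2 and 3. Mock 2 was 35.2 times below the lower of the other mock libraries, and irradiated 3 was 4.02 times irradiated 1, the widest spread of the 8 within the irradiated group. The log2 change was 2.49 (SE 0.84, 95% interval 0.57 to 4.41) and missed the threshold (limma adjusted p = 0.11), and it was 1.42 (adjusted p = 0.18) without mock 2. Emx1 stayed close to Tbr1 in 5 of 6 libraries: their log2 difference was 0.08 to 0.35 there and 0.93 in irradiated 3. The hippocampal sums given above, for a region that also makes Emx1, were at 12.4, 10.7 and 10.9 FPKM across mock 1 to 3, so mock 2 was close to mock 3 in them, and they were highest in irradiated 3 as Emx1 was. Their part in the Emx1 values was not tested.

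The order of the levels changed between the groups. In mock libraries the means ran from Neurod2 at 17.7 FPKM through Cux2 at 8.66, Neurod6 at 6.61, Emx1 at 3.73, Tbr1 at 3.04, Bcl11b at 2.62 and Fezf2 at 2.21 to Rorb at 1.09 FPKM. Neurod2 did not overlap with Cux2 there, and each later neighbour overlapped with the next. In irradiated libraries the order was Neurod2 at 24.7 FPKM, Neurod6 at 23.3, Emx1 at 18.3, Fezf2 at 17.3, Tbr1 at 12.6, Cux2 at 9.75, Bcl11b at 7.88 and Rorb at 1.74 FPKM. Only Bcl11b and Rorb, among neighbours, had ranges that did not overlap. Cux2 went from the second place to the sixth.

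**Figure D3:**
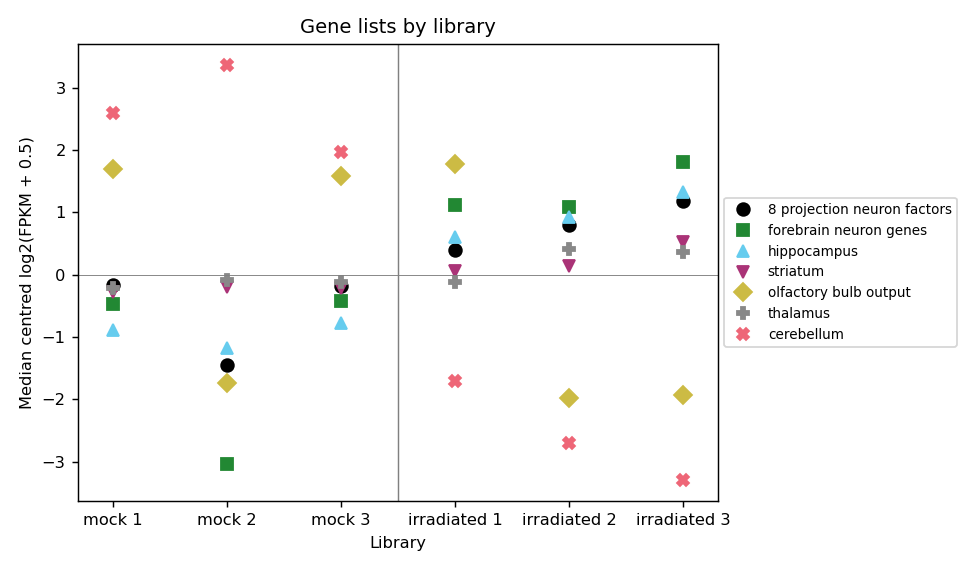
Median over the genes of a list of log2(FPKM + 0.5), centred for each gene over the 6 libraries, for the 8 factors and 6 lists of regional genes. The factors lie at -0.17, -1.45 and -0.18 in mock 1, 2 and 3 and at 0.39, 0.79 and 1.18 in irradiated 1, 2 and 3, and the forebrain neuron genes also have their lowest point in mock 2 and their highest in irradiated 3.

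Over the 8 factors the centred median was -0.17, -1.45 and -0.18 in mock 1, 2 and 3 and 0.39, 0.79 and 1.18 in irradiated 1, 2 and 3. The list of 6 forebrain neuron genes had medians of -0.48, -3.04 and -0.42 across mock 1 to 3 and 1.11, 1.08 and 1.80 across irradiated 1 to 3, so it was lowest and highest in the same libraries as the factors. Camk2a, a synaptic kinase of forebrain neurons, was at 164.4, 24.2 and 110.6 FPKM across mock 1 to 3 and at 282.9, 331.8 and 506.2 FPKM across irradiated 1 to 3. When each library was centred on the median of these 6 genes, the median change of all tested genes moved to -2.72, and 80.6% of all tested genes were called lower and 0% higher. Of the 8 factors 1 was called lower, Cux2, and 0 higher, so the count of 1 is below the share of all genes. This centring puts the same shift of a library into every gene. The standard errors of the 8 factors were 1.15 to 1.17 there, against 0.22 to 0.84 before. Calls and p-values on that scale therefore mainly carry the shared shift and do not measure the spread of each gene between mice. On that scale Fezf2 had a log2 change of 0.35, Emx1 one of -0.22 and Tbr1 one of -0.38, with adjusted p of 0.76, 0.85 and 0.74 in limma. Neurod6 and Bcl11b had changes of -0.99 and -1.16, also not called, and Cux2 had one of -2.51 (adjusted p = 0.042). All 8 factors lay above the median of -2.72 of all tested genes on that scale. Since the centring moves the change of every gene alike, it could not alter this and adds nothing to the changes given above.

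Other genes of cortical projection neurons were mixed. Of 11 further upper-layer genes 2 rose and 0 fell, with a median log2 change of 0.48, and of 18 further deep-layer genes 7 rose and 1 fell, with a median of 0.27. Over all tested genes the median was -0.02. Of 12 tested dorsal forebrain transcription factors among 13 listed, 2 rose and 1 fell, with a median of 0.54. The median of the 8 factors themselves was 1.64, and 1.19 without mock 2. Without mock 2 the medians of these lists were 0.35 for upper layers, 0.21 for deep layers and 0.39 for the dorsal forebrain factors.

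The deep-layer genes with the smallest p had mock 2 less far from the other mock libraries than Fezf2 had. A choice by small p favours genes with little spread among the mock libraries, so this says nothing about deep-layer genes in general. Cplx3, a complexin of subplate and layer 6b neurons, was at 1.22, 0.54 and 0.99 FPKM across mock 1 to 3 and 3.71, 5.32 and 5.77 FPKM across irradiated 1 to 3 (log2 change 1.95, limma adjusted p = 0.0030). Ntsr1, the neurotensin receptor of layer 6 neurons, was at 1.35, 1.04 and 1.43 FPKM across mock 1 to 3 and 3.71, 5.11 and 5.93 FPKM across irradiated 1 to 3. Its log2 change was 1.59. Rprm, which encodes reprimo and marks layer 6, rose by 2.14 on the log2 scale, from 13.6 ± 5.57 to 59.5 ± 16.4 FPKM (SD, n = 3 each). Hs3st4, a heparan sulfate sulfotransferase of deep layers, was at 5.46, 7.79 and 6.97 FPKM across mock 1 to 3, highest in mock 2, and at 21.2, 18.04 and 29.4 FPKM across irradiated 1 to 3. These 4 calls also held without mock 2. Other deep-layer genes went the other way, and the following were picked after their values were seen. Etv1, an ETS factor of layer 5 neurons, fell, from 35.5 ± 6.61 to 18.5 ± 1.65 FPKM (SD, n = 3 each; log2 change -0.91, limma adjusted p = 0.021). Nxph4, a neurexophilin of layer 6b neurons, was at 19.4, 21.2 and 22.7 FPKM across mock 1 to 3 and 14.8, 7.61 and 4.14 FPKM across irradiated 1 to 3, with a log2 change of -1.37 that missed the threshold (adjusted p = 0.059). Deptor and Bcl6 had changes of -0.67 and -0.32, not called, and each also had its irradiated libraries below its mock libraries. The cerebellar sums given above were lower in the same libraries, and any part of cerebellar RNA in the values of these genes was not tested.

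Among upper-layer genes, Scnn1a, an epithelial sodium channel subunit that marks layer 4, rose by 1.42 on the log2 scale (SE 0.21, limma adjusted p = 0.0060). It was at 0.43, 0.45 and 0.81 FPKM across mock 1 to 3 and 2.13, 2.06 and 2.80 FPKM across irradiated 1 to 3. Rorb, of the same layer, had the change of 0.51 given above. Rspo1, a secreted activator of Wnt signalling, had a log2 change of 0.97 (adjusted p = 0.032) that was lost without mock 2 (adjusted p = 0.10) and without mock 1, mock 3, irradiated 2 or irradiated 3, and also with no filter (0.061) or the replicate number as a block (0.083). Unc5d, a netrin receptor, and Plxnd1, a semaphorin receptor, had changes of 0.81 and 1.56 that did not pass (adjusted p = 0.053 and 0.087).

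Among the dorsal forebrain factors, Emx2, the paralog of Emx1, was at 1.16, 0.23 and 1.02 FPKM across mock 1 to 3 and 3.21, 3.25 and 3.63 FPKM across irradiated 1 to 3. Its irradiated libraries spread over only 1.13 times, unlike those of Emx1, and its log2 change was 1.66 (SE 0.30, limma adjusted p = 0.017), lost without irradiated 3 (adjusted p = 0.064). How reads were assigned to strands is not given in the sources used here, so Emx2 and its antisense gene Emx2os may share reads. Lhx2, a LIM-homeodomain factor of the cortical primordium, had a log2 change of 2.26 (adjusted p = 0.041), lost without mock 3, irradiated 2 or irradiated 3 and also with no filter (0.081) or robust variances (0.074). Pax6, a paired-box factor of cortical progenitors, fell by 2.09 on the log2 scale (limma adjusted p = 0.0012), from 9.56 ± 0.83 to 1.91 ± 0.66 FPKM (SD, n = 3 each). In the adult brain Pax6 is also made by cerebellar granule cells, and the cerebellar sums given above were lower in the same libraries. Nr2f1, a nuclear receptor that patterns cortical areas, had a change of 0.78 that did not pass (adjusted p = 0.064).

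**Figure D4:**
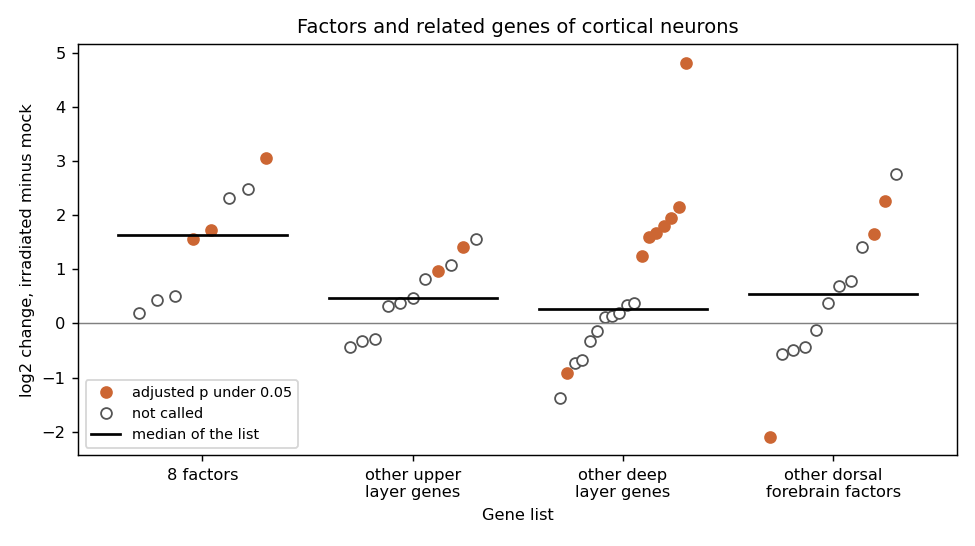
Log2 change, irradiated minus mock, of the 8 factors, of 11 further upper-layer genes, 18 further deep-layer genes and 12 dorsal forebrain factors, with filled points for an adjusted p under 0.05 and a bar at the median of each list. The medians are 1.64, 0.48, 0.27 and 0.54, and each of the 3 further lists holds genes on both sides of 0.

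The other cells of the samples moved in their own ways beside the 8 factors. Of 7 interneuron genes 3 were called higher and 0 lower, with sums of 395.2 to 683.3 FPKM among mock and 987.8 to 1772.2 FPKM among irradiated libraries and none listed at 0. Lhx6, a factor of cortical interneurons, was at 0.76, 0.068 and 0.77 FPKM across mock 1 to 3 and 3.39, 4.62 and 6.89 FPKM across irradiated 1 to 3, with its low point in mock 2 like Fezf2, Tbr1 and Emx1. Gad1, the GABA-synthesizing enzyme of inhibitory neurons in all regions, overlapped between the groups (log2 change -0.27, limma adjusted p = 0.51). Of 6 genes of neurons in all regions 0 were called in limma, with 2 at an unadjusted p under 0.05. Among 5 genes each, astrocytes had 0 called higher and 1 lower, and microglia 0 and 0 (2 at an unadjusted p under 0.05). Mature oligodendrocytes had 1 of 5 called lower, Mobp, but all 5 had negative changes with an unadjusted p under 0.05, and their median was -0.75 on the log2 scale. Their sums were 4780.1 to 5842.4 FPKM among mock and 2254.4 to 3975.2 FPKM among irradiated libraries.

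The genes with the profile most like the mean of the 8 factors were ranked by the root-mean-square difference of centred log2(FPKM + 0.5) over the 6 libraries. Nptx2, a neuronal pentraxin, was the closest at 0.096, followed by Cecr6 at 0.12, Sprn at 0.13, Celf5 at 0.14 and 3110035E14Rik at 0.14. Of the 8 factors, Bcl11b was the closest to that mean at 0.11, and Fezf2 was the farthest at 0.91. Nptx2 was at 15.4, 4.11 and 14.8 FPKM across mock 1 to 3 and at 23.05, 30.6 and 41.8 FPKM across irradiated 1 to 3.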

How the data were processed

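Stranded libraries were prepared from total RNA depleted of ribosomal RNA and read single-end for 75 nucleotides, at 30 to 40 M reads each, per the labels' protocols. The authors deposited FPKM in 1 table with a column per library. The submitters' processing notes name TopHat, Cufflinks, Cuffdiff and build mm10, with settings and annotation not given in the sources used here. A leftover header line (1) was removed. FPKM values are not counts, and no ratio to mock 1 was shared by more than 2.2% of genes under 0.05 FPKM, so the depth is otherwise unknown. Values of exactly 0 may be failed estimates.

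The 14585 genes averaging 0.5 FPKM or more were tested with limma 3.58.1 (R 4.3.3). The values were log2(FPKM + 0.5), the model held the group alone, variances followed a mean-variance trend, and two-sided p-values were adjusted by Benjamini-Hochberg. Fold changes on this scale understate low genes. The p-values measure the spread between 3 mice per group, except after centring on the forebrain neuron genes, where a shift shared by all genes dominates. An exact permutation test cannot go below 0.1 here. The test was tested on simulated data.

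The 8 members and all lists were chosen with earlier results of these data known. Besides the members, the text names the 4 genes with the smallest p of each of the 3 cortical lists, the 2 genes written first in the other lists, of which some are given by value, and the 5 genes most like the members. Etv1, Nxph4, Deptor and Bcl6 were added after their values were seen. Mobp, Six3, Prox1 and Tdo2 are likewise named for their results. Positions are RefSeq's on GRCm38.p6, the assembly mm10 represents, and all 8 members matched. No annotated exon of another gene overlapped theirs (GENCODE M21).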

Additional observations from a re-analysis of the deposited data

How the results depend on the processing

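The 17 alternatives were other pseudocounts, filters, scalings, fits and thresholds, and leaving out each library. Neurod6 was called in all of them but the centring on forebrain neuron genes. Fezf2 lost its call in 8 and Bcl11b was not called in 10, Fezf2 and Bcl11b together with a pseudocount of 0.1 (adjusted p = 0.081 and 0.063), with no filter (0.086 and 0.092) and with robust variances (0.10 and 0.054). The factors called higher numbered 1 with a pseudocount of 0.1, with no filter and with robust variances. Over all tested genes 445, 357 and 508 were called higher in these settings, with 19679 genes tested when there was no filter. When single libraries were left out, 1 to 3 factors were called higher. In none of these settings was a factor called lower. Centring on the forebrain neuron genes gave 0 higher and 1 lower, by its construction against those genes, and log2 changes of -2.51 for Cux2, -0.38 for Tbr1, -2.20 for Rorb, -1.16 for Bcl11b, -2.27 for Neurod2, -0.99 for Neurod6 and -0.22 for Emx1. The Cux2 change ran from -0.15 without mock 2 to 0.43 without irradiated 1. At an adjusted p under 0.1, Tbr1 was called too, making 4.

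Over all genes, 508 were called higher and 618 lower. Library weights gave 863 and 976, and an adjusted p under 0.1 gave 1002 and 1149. Leaving out 1 library gave 147 to 673 higher and 254 to 695 lower. Median centring gave 687 higher and 571 lower. With the replicate number as a block, 401 genes were higher and 394 lower, and 2 factors were called, Bcl11b not among them (adjusted p = 0.072). The deviations of same-numbered libraries correlated at -0.33, 0.19 and 0.20, and not every library correlated best with its own number, so the numbers give no pairing. The Fezf2 change was 3.78 with a pseudocount of 0.1 and 2.66 with one of 1. The causes of the lost calls were not tested.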
